A study of Homo sapiens with 2 samples.

Results

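PAX5 binding was examined at 8 genes of the plasma cell programme in NALM6, a long-established cell line from a human leukaemia of B-cell precursors. The genes were PRDM1, XBP1, IRF4, SDC1, TNFRSF17, JCHAIN, MZB1 and ELL2. A peak of the deposited list was counted for a gene when its summit lay in the window of that gene on hg19, given to the nearest 1 kb, or in the 10 kb on either side. By this rule 24 of the 21361 peaks in the list belonged to the 8 genes. They were distributed as 11 at XBP1, 8 at MZB1, 3 at IRF4, 1 at PRDM1 and 1 at SDC1. No summit fell within the limits of TNFRSF17, JCHAIN or ELL2.

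The peaks come from chromatin immunoprecipitation and sequencing (ChIP-seq) of 1 sample precipitated with a PAX5 antibody from Abcam, set against 1 input control without antibody. Cells of both samples were untreated and were grown for 4 days in RPMI medium lacking phenol red, with 10% serum and 2 mM glutamine. The ChIP pool held 46190180 tags and the control 25416858. There are no replicates, so no difference is tested. Intervals on reads, densities and the folds of single peaks cover counting error only. The interval on the median fold reflects the spread among peaks. It and the density intervals treat peaks as independent, although many are adjacent. None of the intervals measures variation between samples. The control carries RXL in its title, a name that no source used here explains. Binding was measured over all cells together, so a site bound in few cells and a site bound weakly in many cannot be told apart.

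PAX5 belongs to the paired-domain transcription factors and holds cells in the B-lymphocyte lineage. When a B cell becomes an antibody-secreting plasma cell, PAX5 is shut off and a secretory programme led by PRDM1 and XBP1 takes over. In mouse B cells PAX5 is known to repress Xbp1 and the J chain gene, and PRDM1 in turn represses PAX5. The deposited peaks show where PAX5 sits in these leukaemia cells and hold no expression values.

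The upstream sequences of the genes with a peak near the 5′ edge of their window are shown. That edge is known to the nearest 1 kb, so whether a peak covers the gene start was not determined. A peak came within 1000 bp of that edge at XBP1, SDC1 and MZB1. The sequences are the 250 bases before the outermost annotated start, from RefSeq on GRCh38.p14, each read on the minus strand at chr22:28800570-28800819 for XBP1, chr2:20225476-20225725 for SDC1 and chr5:139389914-139390163 for MZB1. Capitals mark the core of the PAX5 paired-domain motif, GCGTGAC, and E-boxes, CANNTG, which are bound by basic helix-loop-helix factors. Both strands were searched.
XBP1: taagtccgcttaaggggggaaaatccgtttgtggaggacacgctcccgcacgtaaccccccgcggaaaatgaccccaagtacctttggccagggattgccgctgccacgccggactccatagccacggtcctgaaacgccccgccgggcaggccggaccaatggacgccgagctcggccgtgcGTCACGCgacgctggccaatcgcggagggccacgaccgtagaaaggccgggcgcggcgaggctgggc
SDC1: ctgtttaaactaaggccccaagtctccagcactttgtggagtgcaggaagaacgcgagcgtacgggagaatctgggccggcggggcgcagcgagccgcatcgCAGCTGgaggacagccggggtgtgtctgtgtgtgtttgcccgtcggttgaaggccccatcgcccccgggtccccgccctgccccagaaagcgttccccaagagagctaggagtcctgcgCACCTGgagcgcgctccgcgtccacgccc
MZB1: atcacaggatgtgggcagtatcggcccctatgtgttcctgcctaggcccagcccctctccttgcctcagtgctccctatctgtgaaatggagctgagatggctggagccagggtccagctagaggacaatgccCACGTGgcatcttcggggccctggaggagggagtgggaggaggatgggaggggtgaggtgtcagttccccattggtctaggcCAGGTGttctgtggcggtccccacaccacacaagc

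The XBP1 sequence held 1 match to the PAX5 core, on the reverse strand, with 60 bases between the match and the start. Of the 9 upstream sequences listed for PRDM1, XBP1, IRF4, SDC1, JCHAIN and MZB1, it was the 1 with this match. Over all 35116 promoters of the table, 772 (2.20%) held it. SDC1 and MZB1 each had 2 E-boxes and no match to the PAX5 core. E-boxes were found in 5 of the 9 sequences, against 61.8% of all promoters. The ETS core GGAA, which is not capitalised above, was in all 9, against 92.7% of all promoters. These matches describe letters only. The sequences are on GRCh38.p14 and the peaks on hg19, so whether a match lies under a peak was not determined.

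Peaks were dense at these genes and moderate in enrichment. The 335 kb searched held 71.6 peaks per Mb (exact Poisson 95% interval 45.9 to 107), against 7.25 on chromosomes 1 to 22 and X. After joining peaks within 500 bp the searched stretch held 41.8 per Mb, below that interval. XBP1 and MZB1 carried most of this density. The other 6 loci held 5 peaks, or 17.5 per Mb (5.70 to 40.9), an interval that includes the value of all chromosomes. The fold enrichment is the authors' own value for each peak, the ratio of scaled ChIP pileup to local control background. Its median over the 24 peaks was 3.11 (exact order-statistic 95% interval 2.74 to 4.39), against 3.89 over all peaks. That interval includes 3.89. Of the 24 peaks, 16 lay below 3.89. A fold of 5 was reached by 3 peaks (12.5%), against 25% of all peaks, and a fold of 10 by none, against 1.72%. With peaks within 500 bp joined, a fold of 5 was reached by 21.4% against 26.6% of all joined regions, and among peaks at a −log10 q of 5 or more by 30% against 34.4%. The 3 were the strongest peaks of XBP1, IRF4 and MZB1.

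These peaks rested on as many ChIP reads as others and on a somewhat higher control background. Their median was 63 ChIP reads over the summit, against 61 over all peaks. The control background, recovered from pileup and fold, is the caller's local estimate and not a count of control reads at the summit. It had a median of 10.0 extended reads at these peaks and of 8.0 at all peaks. The part of this difference in the lower fold was not tested. Another summit lay within 10 kb of 21 of the 24 (87.5%), against 51.9% of peaks over the 22 autosomes and X. This came from all 19 peaks of XBP1 and MZB1, while at the other loci it held for 2 of 5 (40%), both at IRF4. When peaks within 500 bp of each other were joined and represented by their strongest, 14 regions remained, with a median fold of 4.09 against 3.96 over all joined regions. Since each region takes its highest fold and more of the peaks at these genes were joined, joining raises their median more by construction.

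**Figure D1:**
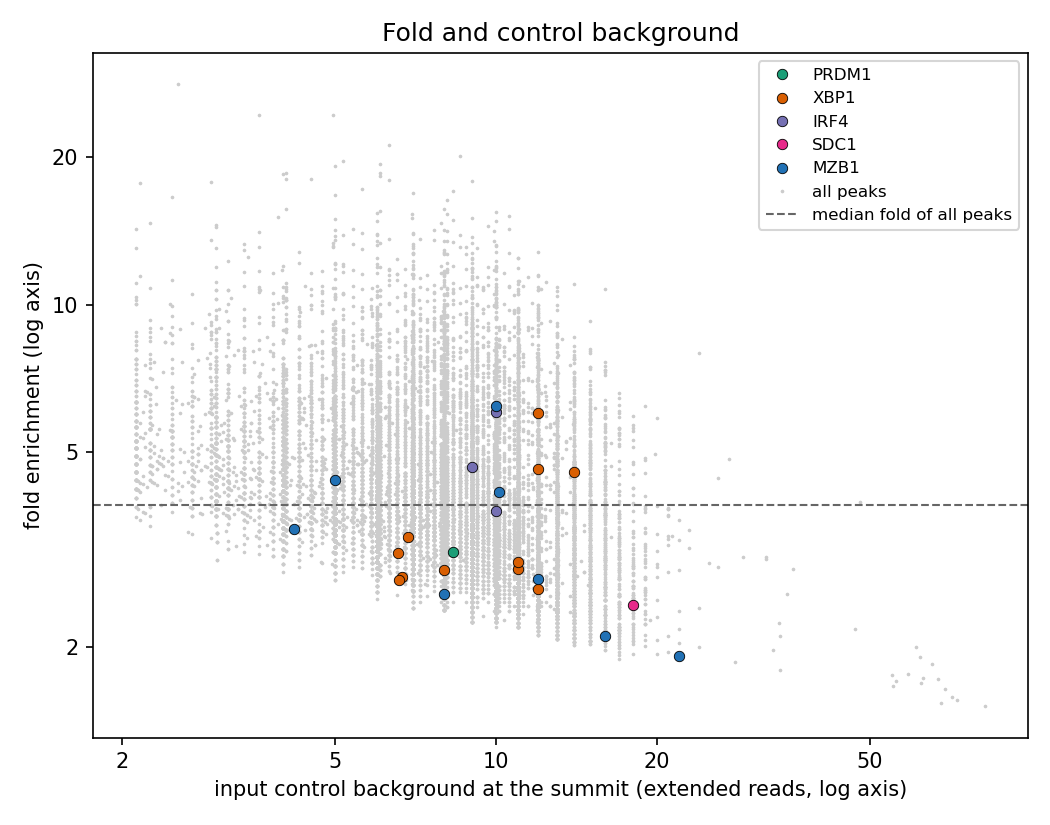
Fold enrichment of each peak (vertical, log axis) against the caller's local input control background for it, in extended reads (horizontal, log axis). The 24 peaks are coloured by locus, all peaks of the list are grey and their median fold is a dashed line. Of the coloured points, 16 lie below the line, and the 3 highest belong to XBP1, IRF4 and MZB1.

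Among the transcription factors, XBP1 carried the most peaks. XBP1 encodes a basic leucine zipper factor that drives the unfolded protein response and the secretory machinery of plasma cells. Its window spans chromosome 22 from 29190000 to 29197000, and the gene is read on the minus strand. The 11 summits lay in 27 kb, at 407 per Mb (203 to 729), against 21.8 per Mb over chromosome 22. Together the peaks covered 7197 bp, or 26.7% of the searched stretch. Of consecutive tiles of the same length on chromosomes 1 to 22 and X, 12.8% held at least 1 summit and 0.000918% (1 of 108875) held 11 or more. That tile was not at XBP1, where fixed tile borders divided the group and the fullest tile held 10 of its summits. After joining peaks within 500 bp, XBP1 kept 5 regions, a number reached by 0.138% of tiles. Tiles were not matched for genes and include unsequenced stretches.

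The strongest XBP1 peak had its summit beyond the 3′ edge of the gene window and reached across that edge, which is known to the nearest 1 kb. It extended from 29187681 to 29190042, and with 2362 bp it was wider than 99.9% of all peaks. The summit, 1.71 kb past the edge, had a pileup of 77.0 in the ChIP at control depth and a background of 12.0 in the control. This corresponded to 140 ChIP reads (exact Poisson 95% interval 118 to 165) and a fold of 6.0 (5.06 to 7.07), with a −log10 q of 31.9. By fold it ranked 2966 among all peaks. A weaker peak from 29187350 to 29187576 lay 104 bp beside it, with a pileup of 19.8 over a control background of 6.59 and a fold of 2.74.

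Upstream of XBP1, a peak from 29198069 to 29198785 had its summit 1.45 kb before the 5′ edge. Its pileup was 67.1 in the ChIP against a control background of 14.0, a fold of 4.54 (3.78 to 5.41) from 122 ChIP reads. Next to it, nearer the gene, the peak from 29197734 to 29197991 had a pileup of 24.8 against a control background of 8.0 and a fold of 2.86. A further peak from 29206645 to 29207446 had a fold of 4.61 from 107 reads, with a summit 9.93 kb before the edge, just inside the 10 kb limit. Beyond that limit, with its summit 17.7 kb from the window, the peak from 29214261 to 29214959 had 175 reads and a fold of 4.86. The searched stretch therefore ends within a longer run of peaks, with 4 more summits within 100 kb of the window.

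Inside the XBP1 window, 6 peaks of low fold followed each other. The 1 nearest the start, from 29195732 to 29196814, was 1083 bp wide and ended 186 bp from the 5′ edge, which is known to the nearest 1 kb. Its pileup was 33.6 in the ChIP over a control background of 11.0, with a fold of 2.88 (2.22 to 3.68) from 61 reads. The other 5 had folds between 2.62 and 3.36, and their counting intervals overlapped that of the peak nearest the start. All 6 were below the median of the whole list. The 3 peaks of highest fold at XBP1 had their summits outside the gene window, 1 beyond its 3′ edge and 2 before its 5′ edge. In RefSeq the neighbouring protein-coding genes are CCDC117 and ZNRF3, and how far the flanks reach into neighbours on hg19 was not determined here.

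**Figure D2:**
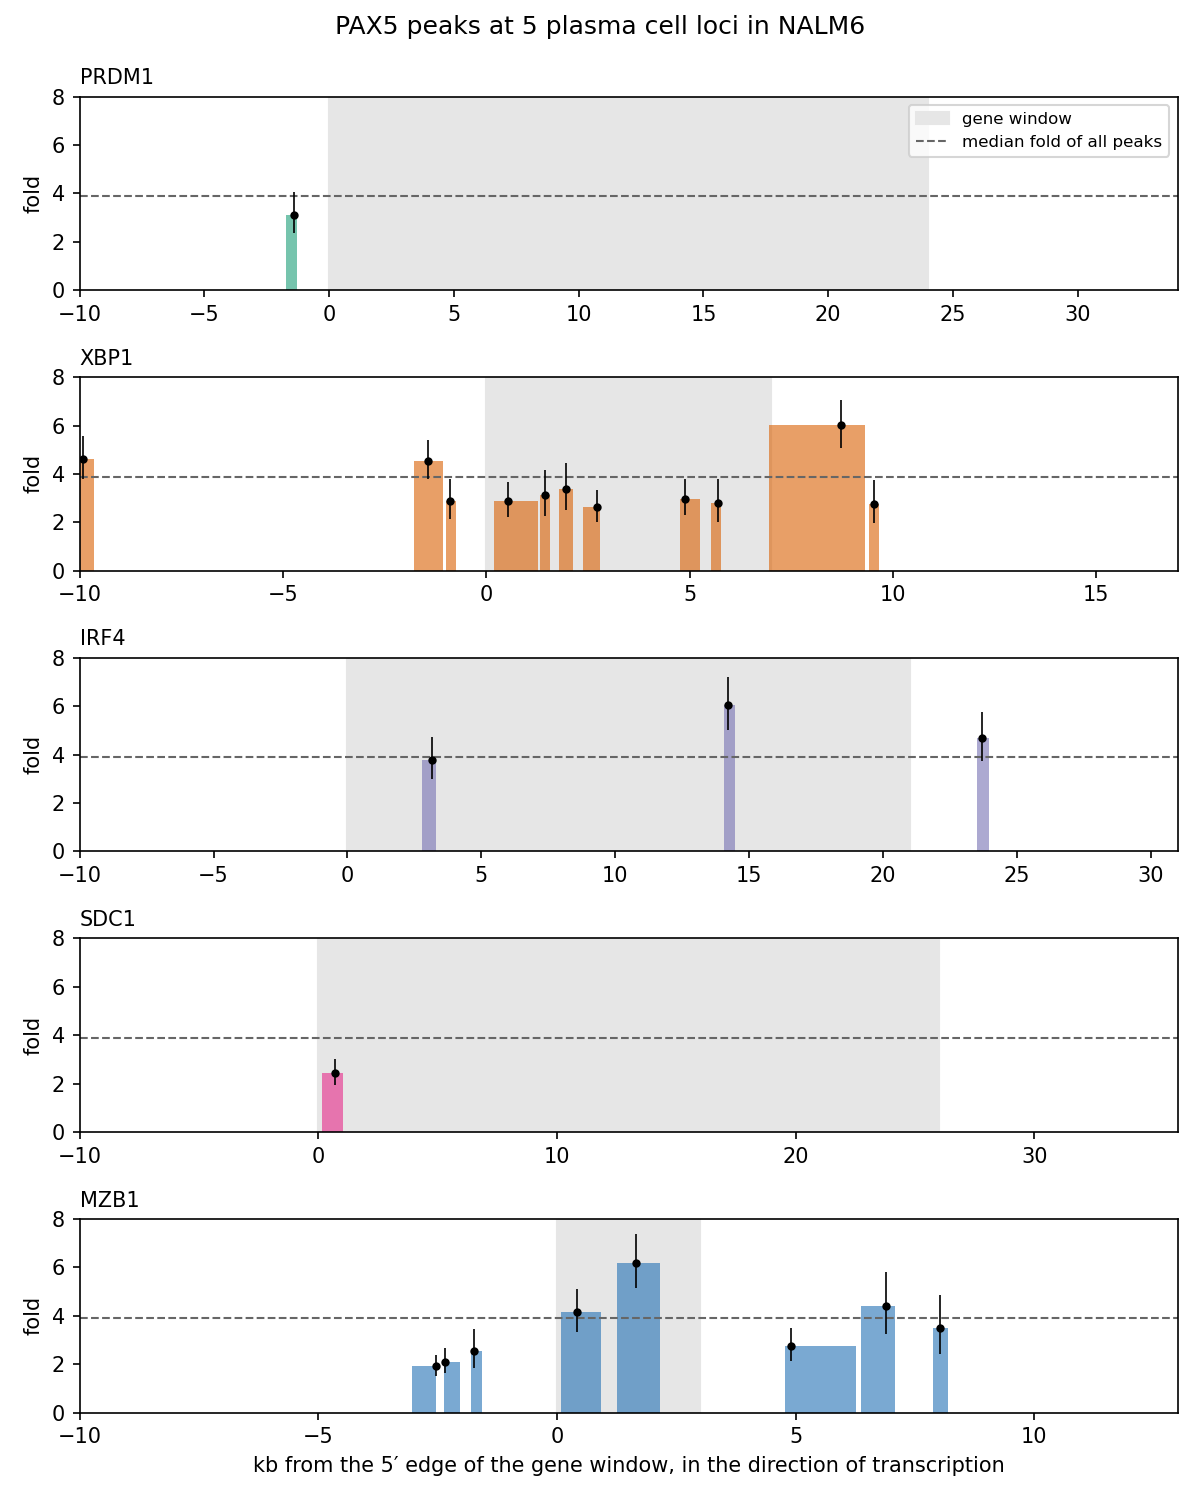
Fold enrichment (vertical) of the peaks at PRDM1, XBP1, IRF4, SDC1 and MZB1 against distance in kb from the 5′ edge of the gene window, in the direction of transcription. Each bar spans a peak, the point marks its summit with the 95% counting interval at fixed control background, grey shading is the gene window and the dashed line the median fold of all peaks, and the panels end at the 10 kb limits. XBP1 and MZB1 show runs of adjacent peaks, IRF4 3 separate ones, and PRDM1 and SDC1 1 each near the 5′ edge.

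IRF4, an interferon regulatory factor needed both in B-cell development and, at higher levels, in plasma cells, had 3 well-separated peaks. Its window covers chromosome 6 from 391000 to 412000 on the plus strand. The strongest, from 405080 to 405480, lay within the gene, 14.2 kb from the 5′ edge. It had a ChIP pileup of 65.5 over a control background of 10.0. The fold was 6.04 (5.02 to 7.21) from 119 reads, with a −log10 q of 27.1. The peak from 414529 to 414960, 2.71 kb past the 3′ edge, had a pileup of 45.7 over 9.00 and a fold of 4.67 (3.74 to 5.76). The third, from 393774 to 394304 and 3.15 kb inside the 5′ edge, had a pileup of 40.7 over 10.0 and a fold of 3.79 (3.0 to 4.74). Adjacent folds in this order had overlapping intervals. Those of the highest and the lowest did not overlap, with the control background held fixed.

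IRF4 differed from XBP1 in the spacing of its sites, with 9048 and 10775 bp between peaks. Its density was 73.2 per Mb (15.1 to 214), against 6.78 on chromosome 6, and 2.92% of tiles of the same length held 3 summits or more, or 2.41% held 3 or more after joining. A stronger site lay outside the limits, on the side of DUSP22, the preceding protein-coding gene in RefSeq. This peak, from 364547 to 365348, had its summit 25.9 kb before the window, with 149 ChIP reads (126 to 175) over a control background of 8.10 and a fold of 9.12. It ranked 562 by fold, above all 24 peaks counted here. On the side of EXOC2, the nearest summit outside the limits was 59.0 kb from the window, with a fold of 2.94. Farther on that side, 136 kb from the window centre, a peak had a fold of 9.47.

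PRDM1 encodes BLIMP-1, the zinc finger repressor that ends the B-cell programme, and it had 1 weak peak. The site, on chromosome 6 from 106532283 to 106532705, had its summit 1.4 kb before the 5′ edge of the window. Its pileup was 28.1 in the ChIP against a control background of 8.32. The fold was 3.12 (2.35 to 4.06) from 51 reads (38.0 to 67.1), higher than 22.4% of all peaks, with a −log10 q of 4.86. Nothing was called in the 24 kb of the gene window itself. Of tiles of this length, 18.3% held at least 1 summit. The nearest other summits were 93.7 kb from the window on the side of PREP and 334 kb on the side of ATG5, so the peak stood alone.

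Of the surface proteins, SDC1 had a peak and TNFRSF17 had none. SDC1 encodes syndecan-1, or CD138, the heparan sulfate proteoglycan used to recognise plasma cells. Its peak on chromosome 2, from 20424963 to 20425835, ended 165 bp from the 5′ edge of the window. That edge is known to the nearest 1 kb, so whether the peak covers the gene start was not determined. The pileup was 45.1 in the ChIP, from 82 reads. The control background of 18.0 extended reads was higher than at 99.2% of all peaks, whose median was 8.0. The fold was 2.43 (1.94 to 3.0), higher than only 3.36% of all peaks, and the −log10 q was 4.74. No other summit was found within 100 kb of the window, and the nearest were 124 kb and 897 kb away. Of tiles of this length, 18.8% held at least 1 summit.

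TNFRSF17 encodes BCMA, the receptor for the survival factors BAFF and APRIL on plasma cells. No summit lay in its window on chromosome 16, from 12058000 to 12062000, or in the flanks, as in most tiles of this length, of which 11.7% held at least 1. The nearest peak, from 12009599 to 12010054, lay 48.1 kb below the window, with 63 ChIP reads over a control background of 8.33 and a fold of 3.82. The wider region was not empty, with 27 summits within 500 kb.

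Of the antibody assembly genes, MZB1 had 8 peaks and JCHAIN had none. MZB1 encodes an endoplasmic reticulum chaperone that assists immunoglobulin assembly and secretion, and it is also made in some B cells. Its window, on chromosome 5 from 138723000 to 138726000 on the minus strand, is only 3 kb long. The 23 kb searched held 348 peaks per Mb (150 to 685), against 5.12 on chromosome 5, and 23.2% of it was covered by peaks. At least 1 summit was found in 11.2% of tiles of this length, and 8 or more in 0.0133% (17 of 127808, of which 1 was at MZB1). After joining, MZB1 had 4 regions, a number reached by 0.285% of tiles.

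Both peaks inside the MZB1 window were broad, at 901 and 838 bp against a median of 383 bp over all peaks. The stronger, from 138723835 to 138724735, had a pileup of 67.1 in the ChIP against a control background of 10.0. Its fold of 6.19 (5.16 to 7.38), from 122 reads, was the highest of the 24 and exceeded 87.5% of all peaks. The other, from 138725082 to 138725919, ended 81 bp from the 5′ edge, which is known to the nearest 1 kb. This peak had a pileup of 45.1 over a control background of 10.1 and a fold of 4.15 (3.32 to 5.12). With the control background held fixed, their counting intervals did not overlap, but only narrowly (5.16 against 5.12).

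The flanks of MZB1 held 3 peaks on each side, with control backgrounds from 8.0 to 22 before the 5′ edge and from 4.19 to 12.0 beyond the 3′ edge. Before the 5′ edge, from 138727582 to 138729030, the folds were 2.56, 2.1 and 1.91 in order of distance. The farthest of these had a pileup of 42.9 in the ChIP but a control background of 22, the highest of the 24. Only 0.0796% of all peaks had a fold below that of this peak. Its q value, at a −log10 of 1.80, was the weakest of the 24. Beyond the 3′ edge, the peak from 138718918 to 138719637 had a pileup of 25.3 over 5.00 and a fold of 4.39. Its neighbours on either side had folds of 2.74 and 3.48. The neighbouring protein-coding genes in RefSeq are SLC23A1 and PROB1, and the flanks may lie in them.

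**Figure D3:**
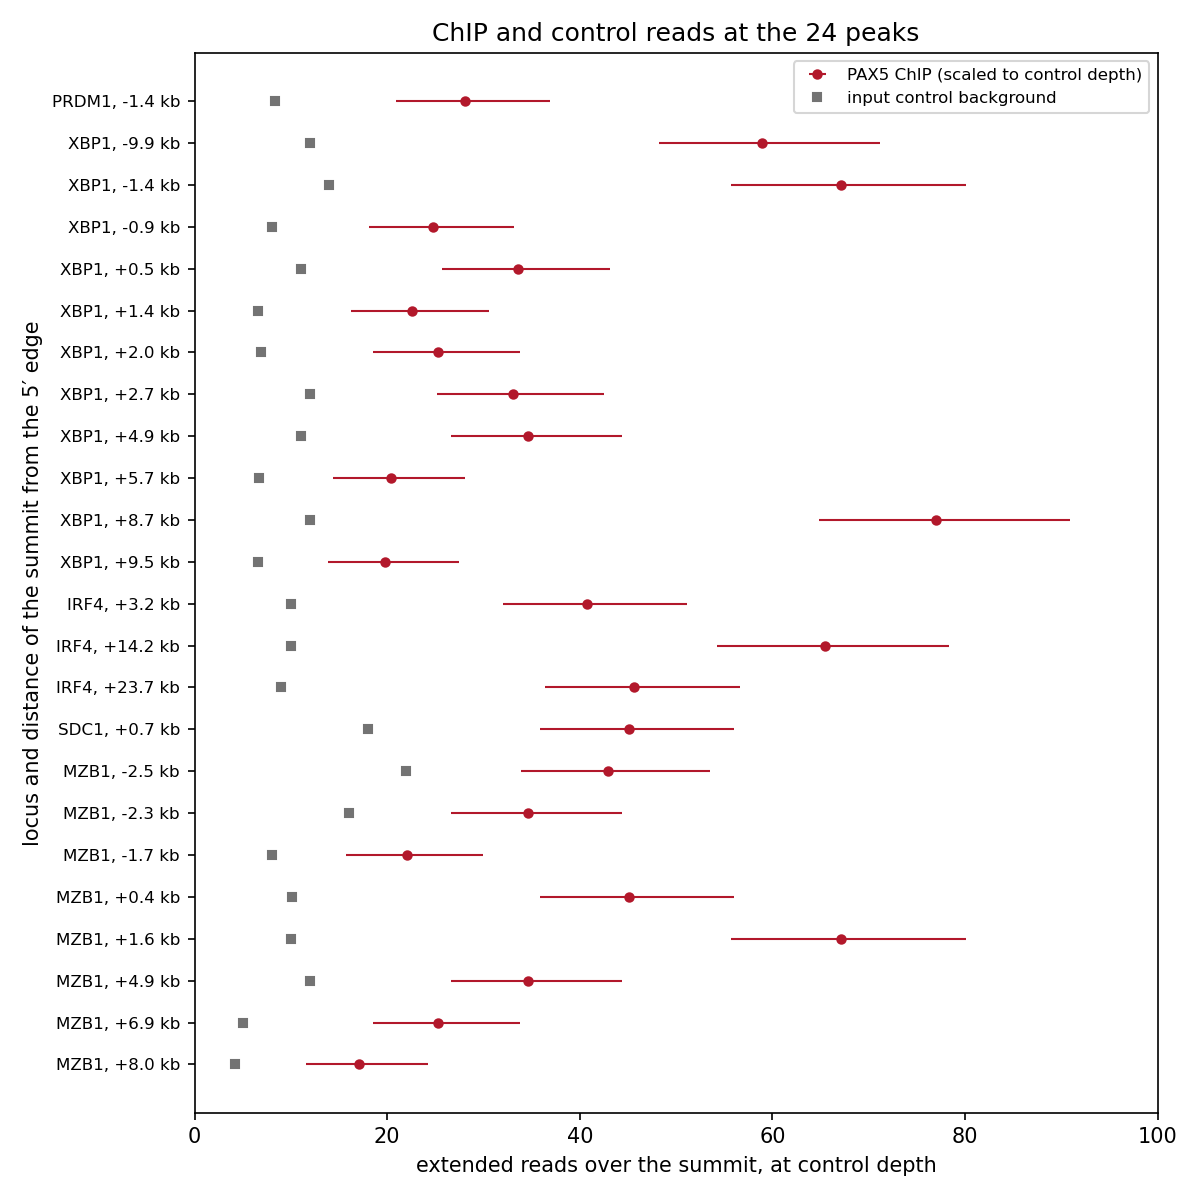
PAX5 ChIP pileup (red, with exact Poisson 95% intervals) and the caller's local input control background (grey squares) for the 24 summits. Both are in extended reads at control depth, and peaks are ordered by locus and by distance from the 5′ edge. The ChIP value exceeds this background at every summit, which the peak call requires. The gap is widest at the XBP1 peak whose summit lies beyond the 3′ edge, with 77.0 against 12.0.

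JCHAIN encodes the joining chain that links polymeric IgM and IgA. Although its mouse counterpart is a known target of repression by Pax5, no summit lay in its window on chromosome 4, from 71521000 to 71533000, or in the flanks. Tiles of this length held at least 1 summit in 14.5% of cases. The nearest peak, from 71553827 to 71554323, lay 21.0 kb from the window, before the 5′ edge, with 69 ChIP reads over a control background of 17.0 and a fold of 2.16. On the other side the nearest summit was 1598 kb away. Chromosome 4 had 3.86 peaks per Mb.

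ELL2, an elongation factor that favours the secreted form of immunoglobulin heavy chain mRNA in plasma cells, had no peak although its window is the longest. The 98 kb searched on chromosome 5, from 95210000 to 95308000, compare with 30.6% of tiles of that length that held at least 1 summit. The nearest peaks were 62.1 kb below the window, with a fold of 3.11, and 605 kb above it, with a fold of 10.5. Only 3 summits were found within 500 kb, fewer than at any other of the 8 loci. For TNFRSF17, JCHAIN and ELL2, the list shows that no site passed the caller's q-value threshold of 0.05. The weakest summit anywhere in the list held 19 ChIP reads, and weaker binding is not recorded.

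**Figure D4:**
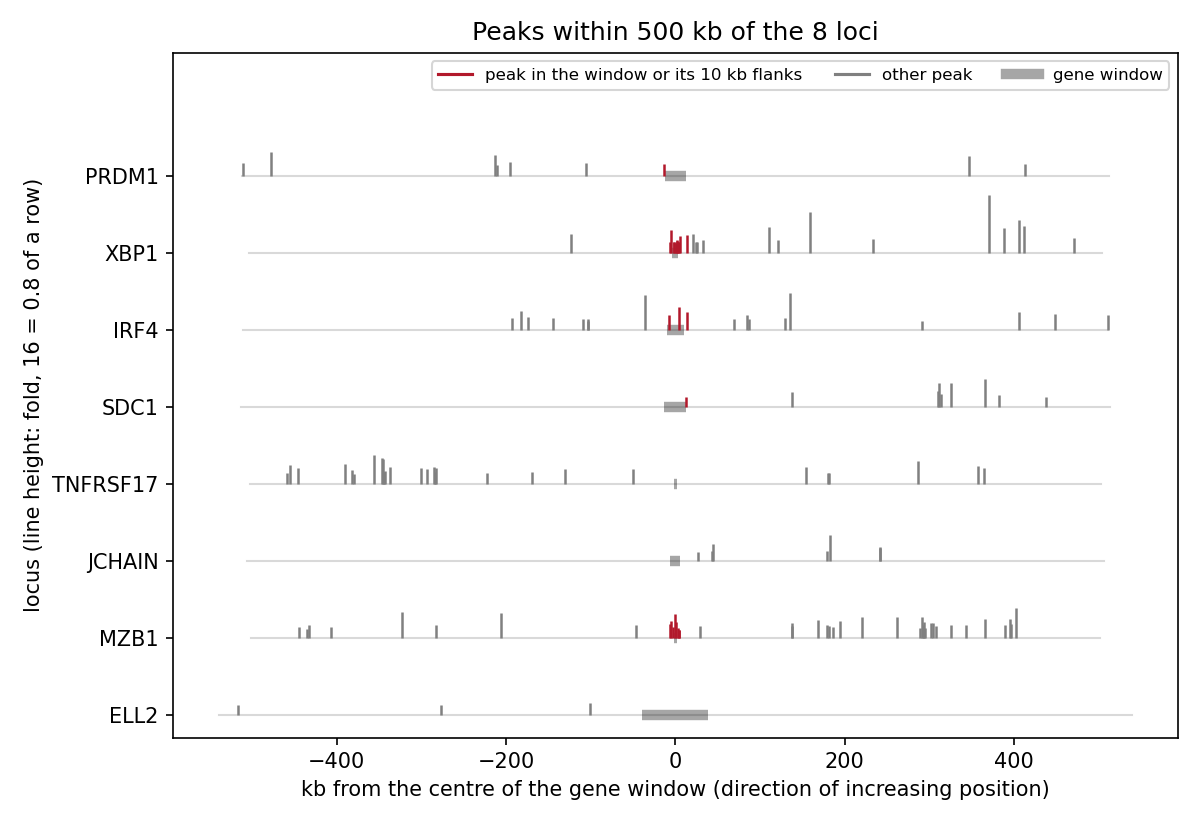
Peaks within 500 kb of the 8 gene windows, placed by distance in kb from the window centre in the direction of increasing position. Line height shows fold enrichment, red marks peaks within the window or its 10 kb flanks, grey other peaks and the thick bar the gene window. XBP1 and MZB1 show the tightest groups at the gene, and ELL2 the emptiest surroundings, with 3 peaks.

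Within 500 kb but outside the searched stretch, the 3 loci with several peaks had 33 (MZB1), 17 (IRF4, near the end of its chromosome) and 14 (XBP1). Of the others, TNFRSF17, with no peak of its own, had 27, and PRDM1, SDC1, JCHAIN and ELL2 had 8, 8, 7 and 3. By role, the 3 transcription factors held 15 of the 24 peaks, of which 11 were at XBP1. The antibody assembly genes held 8, all at MZB1, the surface proteins 1 and the elongation factor 0. Roles differed in the length searched, so these counts do not rank them. All 24 peaks are in the cleaned list of the authors with identical borders, as are 21351 of the 21361 peaks in the whole list. At a −log10 q of 5 or more, 10 of the 24 peaks remained, against 15534 of the 21361 in the whole list. The 10 were 4 at XBP1, 3 at IRF4 and 3 at MZB1, so that the single peaks of PRDM1 and SDC1 were lost. The median fold of the 10 was 4.57, against 4.39 over all peaks past the same value.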

How the data were processed

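ChIP-seq of PAX5 in NALM6 was compared with an input control, 1 sample each. Per the submitters' processing notes, the alignment used BWA and hg19. Peaks were called with MACS2 2.1.1.20160309 on pooled ChIP reads of 50 bp extended to 225 bp, at a q-value threshold of 0.05, per the file headers. The number of pooled libraries was not stated in these sources. The authors deposited the pileup signal, scaled by 0.550 to control depth, the fold enrichment as a ratio to local control background, and −log10 p and q values. From these, ChIP reads were recovered as pileup divided by the scale (whole within 0.005 pileup units for 100% of peaks), and control background from pileup and fold with the caller's pseudocount of 1. Fold intervals hold the background fixed. Tiles were consecutive, over the span of summits on each of chromosomes 1 to 22 and X. Strand and promoters came from a table of RefSeq promoters (GRCh38.p14), in which 6 of the 8 genes were matched. All peaks at the 8 genes were described. Outside them only nearest peaks, not on each side of every gene, and a farther peak at IRF4 were described. The genes, windows and settings were chosen with earlier results of these data known. A longer list of plasma cell genes needs hg19 annotation, not used here. The scripts, tested on simulated peaks, ran in Python 3.11.15 with pandas 2.3.3, numpy 2.4.6, matplotlib 3.10.9 and scipy 1.17.1.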

Additional observations from a re-analysis of the deposited data

How the results depend on the processing

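The 24 peaks became 11 without flanks, 10 at a −log10 q of 5 or more and 14 after joining peaks within 500 bp, and the 5 genes with a peak became 3 at that q. Of all 21361 peaks, 15534 passed that value. Flanks of 50 kb gave 35 peaks at 7 genes. The median fold of 3.11 was 4.57 at that q, which selects high folds by construction. The density of 71.6 per Mb was 35.9 with 50 kb flanks, 29.9 at that q and 41.8 after joining. Leaving out each gene in turn gave 13 to 24 peaks, 4 to 5 genes with a peak, median folds of 2.97 to 3.48 and densities of 42.2 to 101 per Mb, the lowest count and density without XBP1. Counting any overlap and using the cleaned list changed none of these values. The strongest peak of each of the 5 genes was the same by fold, reads and −log10 q. The PAX5 core was in 1 promoter with or without the 50 bases after the start. Depth limits the order of peaks with overlapping intervals. No paired analysis was possible because each group has 1 sample.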
